A study of Mus musculus with 24 samples.

Results

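The interleukin receptor genes are described here across 4 ages in the pancreatic islets of NOD mice, which develop autoimmune diabetes spontaneously. Members were the genes whose name on the array begins with Il, a number and r. By this rule 41 genes were found, measured by 68 of the 41174 probes, and 32 of them passed a filter on dim probes, out of 18085 genes tested. The filter asked for a signal well above background in either channel on at least 6 arrays, so a gene that is seen in 1 channel only could pass through the group where it was high. The rule takes in Il1rn, whose product is a secreted antagonist of the interleukin-1 receptor and not itself a receptor.

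Each array held islet RNA of 1 female NOD/LtJ (NOD) mouse, with islets freed by collagenase, at the ages of 10 days, 4 weeks, 12 weeks and 20 weeks, with 6 mice at each age; the labels do not say which mice were diabetic. The control on every array was islet RNA pooled from 6 female NOD.B10Sn-H2b/J (NOD.B10) mice of the matching age, a strain that has the NOD background with the H2b haplotype of the major histocompatibility complex. NOD RNA carried Cy5 and the pool Cy3 on all 24 arrays, so a dye effect of a probe stays in the ratio of an age and drops out of a difference between ages. Values are log2(NOD/pool), where 1 stands for 2-fold. The labels were read as 1 pool for each age, which makes the pool 1 control sample: the test of a ratio against 0 leaves out the spread among control mice, and a change with age also holds whatever differs from pool to pool.

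Interleukin receptors are built from chains that bind a cytokine and chains shared between cytokines. The common gamma chain, encoded by Il2rg, pairs with the chains for interleukins 2, 4, 7, 9, 15 and 21 and signals through JAK kinases and STAT factors, mainly in lymphocytes. Receptors of the interleukin-1 and interleukin-17 families signal instead through adaptor proteins to NF-kappaB, and the interleukin-1 receptor of the beta cell is a long-studied target in diabetes.

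The share of probes well above background was 42.3% to 64.6% for NOD mice and 39.4% to 60.4% for the pools, lowest at 12 weeks (39.4% to 43.6%). Mice of the same age correlated at a median of 0.69 to 0.81, and the lowest pair, at 20 weeks, at 0.19. Between ages 11 pairs of arrays correlated below -0.3, the lowest at -0.541; the labels state the dyes, and directions follow them. Within-array loess places the median gene near 0, and centring each array on its median instead put the median gene at 0.378, -0.147, 0.502 and -0.211 at the 4 ages in turn. Directions are therefore relative to the median gene after loess. At 20 weeks replicates 5 and 6 stood apart, with a mean ratio of islet endocrine genes of -3.20 and -1.31 where the other 4 mice lay between -0.72 and -0.43, and 20 week results are given with and without them where a call differs.

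The sequences below show what was measured and what lies in front of these genes. The probes of Il2rg (chrX:98461022-98461535, minus strand, mm9) and the second probe of Il1r2 (chr1:40168971-40171918, plus strand, mm9) are 60-base oligonucleotides whose listed genomic span is 514 and 2948 bases. These 2 were chosen because such a probe spans an intron and so reads spliced RNA.
Il2rg probe: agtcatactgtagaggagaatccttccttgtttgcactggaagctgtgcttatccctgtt
Il1r2 second probe: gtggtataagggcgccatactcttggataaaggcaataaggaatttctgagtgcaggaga

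Of the 10 members that were higher in NOD mice at 20 weeks, 5 have a single start in the RefSeq promoter table (GRCm38.p6), and the 250 bases before that start are shown for each, 5′ to 3′ on the gene's strand. Capitals mark matches, on either strand, to the interferon-gamma activated sequence bound by STAT factors (TTCNNNGAA), to the Runx core (TGTGGT), to an ETS site (GAGGAAGT), to a kappaB site (GGACTTTCC) or to an interferon-stimulated element (GAAANNGAA).
Il2rg (chrX:101268256-101268505, minus): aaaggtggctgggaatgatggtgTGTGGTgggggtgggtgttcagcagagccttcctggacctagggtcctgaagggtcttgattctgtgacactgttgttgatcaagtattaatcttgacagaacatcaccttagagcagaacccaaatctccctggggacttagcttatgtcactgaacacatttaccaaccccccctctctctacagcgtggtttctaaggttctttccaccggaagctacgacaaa
Il7r (chr15:9529877-9530126, minus): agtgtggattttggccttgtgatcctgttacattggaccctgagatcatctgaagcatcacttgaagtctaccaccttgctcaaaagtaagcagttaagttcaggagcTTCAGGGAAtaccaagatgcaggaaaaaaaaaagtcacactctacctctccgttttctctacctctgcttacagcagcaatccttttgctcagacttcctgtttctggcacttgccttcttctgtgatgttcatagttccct
Il21r (chr7:125603179-125603428, plus): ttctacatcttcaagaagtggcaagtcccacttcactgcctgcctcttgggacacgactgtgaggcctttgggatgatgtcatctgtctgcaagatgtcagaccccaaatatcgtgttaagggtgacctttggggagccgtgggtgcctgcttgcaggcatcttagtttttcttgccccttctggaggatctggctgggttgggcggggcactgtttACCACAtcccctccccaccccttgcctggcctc
Il4ra (chr7:125552021-125552270, plus): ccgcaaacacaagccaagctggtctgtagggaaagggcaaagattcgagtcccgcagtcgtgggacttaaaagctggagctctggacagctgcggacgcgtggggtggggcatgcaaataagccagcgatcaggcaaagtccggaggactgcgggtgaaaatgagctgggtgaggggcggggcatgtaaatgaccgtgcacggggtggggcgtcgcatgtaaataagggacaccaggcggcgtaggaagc
Il1r2 (chr1:40085843-40086092, plus): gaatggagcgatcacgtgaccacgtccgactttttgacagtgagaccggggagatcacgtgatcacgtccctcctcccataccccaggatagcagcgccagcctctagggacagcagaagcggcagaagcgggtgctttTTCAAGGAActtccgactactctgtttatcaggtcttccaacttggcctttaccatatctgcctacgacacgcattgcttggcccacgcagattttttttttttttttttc

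A STAT match stands in the windows of Il7r and Il1r2, a Runx match in those of Il2rg and Il21r, and none of the 5 motifs in that of Il4ra. Over the 34 listed starts of the 26 members that the table holds, 3 had the STAT match, 5 the Runx match, 1 the ETS match, 1 the interferon element (Il15ra) and 0 the kappaB site, and no matches overlapped. Among all 32851 windows of this length the shares were 7.02% for STAT, 14% for Runx, 2.44% for ETS, 0.283% for kappaB and 7.13% for the interferon element. A match is a description of the letters and says nothing of binding.

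A member was called when its adjusted p was under 0.05 (limma, Benjamini-Hochberg over all genes) and its change at least 2-fold. Few members were called at the young ages and most of the calls came at 20 weeks. At 10 days 1 member was higher (Il1r1) and 0 lower, where 1.61% and 2.36% of all genes were called. By limma, 4 members were higher and 9 lower at an unadjusted p under 0.05. At 4 weeks 0 members were called in either direction, against 1.91% of all genes higher and 0.879% lower; by limma, 5 members were higher and 5 lower at an unadjusted p under 0.05. At 12 weeks 4 were higher (Il2rb, Il10ra, Il11ra1, Il21r) and 1 lower (Il28ra), with 2.09% and 1.42% of all genes called. At 20 weeks 10 of 32, or 31.2%, were higher and 0 lower, where 3.87% of all genes were higher and 1.23% lower. By limma, 20 members were higher and 3 lower at an unadjusted p under 0.05. The share of all genes at an unadjusted p was not counted, so the counts at that threshold are not read as a result about the members. At 20 weeks the median of the members was 0.33 where that of all genes was -0.0038, and 23 of 32 means lay above 0 against 49.3% of all genes. The mean over the 32 members in single mice ran from -0.24 to 0.10 at 10 days, from -0.08 to 0.18 at 4 weeks, from 0.13 to 0.46 at 12 weeks and from 0.35 to 0.94 at 20 weeks.

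**Figure D1:**
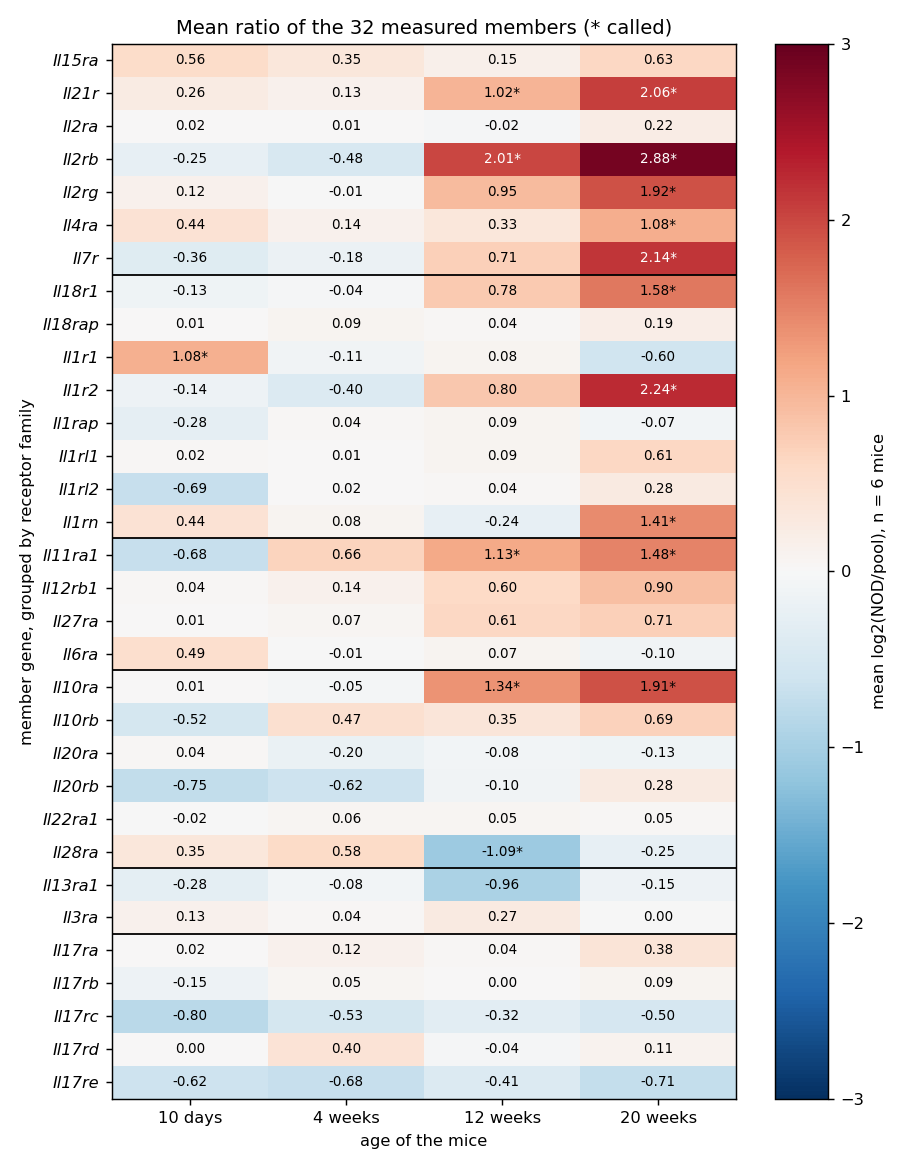
Mean log2(NOD/pool) of the 32 measured members (rows, grouped by receptor family) at each age (columns), 6 mice each; red is higher in NOD, blue lower, and an asterisk marks a call. The 20 week column holds 10 asterisks, 5 of them among the 7 common gamma chain family members, and the IL-17 receptor rows hold 0.

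The counts depended on the scaling, and the share of all genes called under the same setting is given beside each. Under median centring 2 members were higher at 10 days (14.9% of all genes), 12 higher and 0 lower at 12 weeks (23.5% and 0.171%), and 8 higher and 3 lower at 20 weeks (2.50% and 7.58%). By the scanner software's own log ratio 5 were higher and 5 lower at 10 days (8.92% and 7.17% of all genes) and 5 lower at 4 weeks (5.02%). By the same ratio 11 were higher and 2 lower at 12 weeks (11.6% and 6.40%), and 16 higher and 1 lower at 20 weeks (8.18% and 8.36%). Over all genes, 75.8% of the 20 week calls were higher after loess, 24.8% after median centring and 49.4% by the scanner log ratio. At 12 weeks these shares were 59.5%, 99.3% and 64.4%, at 4 weeks 68.5%, 17.3% and 57.2%, and at 10 days 40.6%, 98.1% and 55.5%.

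Among the receptors of the common gamma chain family, 5 of the 7 measured members were higher at 20 weeks, 2 at 12 weeks and 0 at the younger ages. The largest change of any member was that of Il2rb (probe at chr15:78311109-78311168, mm9), the signalling chain shared by the receptors for interleukins 2 and 15. Its ratio ran from -1.20 to 0.74 (median -0.17) over the mice at 10 days and from -0.78 to -0.14 (median -0.49) at 4 weeks. At 12 weeks it ran from 1.47 to 2.74 (median 1.90) and at 20 weeks from 2.13 to 3.66 (median 2.91), so that no mouse of the older ages overlapped one of the younger. The 20 week mean was 2.88 ± 0.59 (SD, n = 6), or 7.36-fold (adjusted p = 5.84e-10), and the 12 week mean 2.01 ± 0.48 (adjusted p = 1.28e-07).

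Il2rg, the common gamma chain itself, reached 1.92 ± 0.53 at 20 weeks (1.04 to 2.50, median 2.03, adjusted p = 4.57e-09). At 12 weeks its mean of 0.95 ± 0.35 (0.58 to 1.40, median 0.90) passed the adjusted p but stood under the 2-fold floor. By the scanner ratio the 12 week mean was 2.40 and after median centring 1.58. All 6 mice were above 0 at both ages. At 10 days (-0.36 to 0.90) and 4 weeks (-0.19 to 0.34) the mice lay on both sides of 0.

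Il21r, the receptor chain for interleukin 21 (probe at chr7:132776151-132776210, mm9), was at 1.02 ± 0.45 at 12 weeks (0.60 to 1.60, median 0.90) and at 2.06 ± 0.61 at 20 weeks (1.18 to 2.68, median 2.08). The adjusted p was 2.59e-05 and 1.33e-09. At 12 weeks the pool was well above background on 1 of 6 arrays for this probe, and the call at that age ended, at 0.905 to 0.998, when replicate 1, 4 or 5 was left out. By the scanner ratio the 12 week mean was 2.84 and after median centring 1.67. At 4 weeks its mice lay between 0.00 and 0.27 and at 10 days between -0.08 and 0.70.

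Il7r, the receptor chain for interleukin 7 on T cells and their precursors (probe at chr15:9435976-9436035, mm9), was higher at 20 weeks by 2.14 ± 0.76 (0.99 to 3.01, median 2.23, adjusted p = 6.65e-07). At 12 weeks 5 of the 6 mice lay between 0.37 and 0.69 and replicate 4 stood apart at 1.65. The mice at 10 days were the most spread of any age, from -1.26 to 1.17, and at 4 weeks they ran from -0.36 to 0.11. Its other probes were well above background on 1 and 3 of the 24 arrays and gave no second reading.

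Il4ra, the chain that binds interleukin 4 and also takes part in the interleukin 13 receptor (probe at chr7:132721137-132721196, mm9), was at 1.08 ± 0.67 at 20 weeks (0.22 to 1.85, median 1.18, adjusted p = 0.000223). This value lies at the floor of the call, and leaving out replicate 1, 2 or 3 brought it to 0.93 to 0.99. After median centring it was 0.56 and not called. The other 2 measured members of the family were not called. Il15ra, the high-affinity chain for interleukin 15, had age means from 0.15 to 0.63, and Il2ra, the alpha chain that raises the affinity for interleukin 2, from -0.02 to 0.22. Il2ra was well above background on 7 arrays only, all in the NOD channel, so a ratio near 0 there is a reading at background. By the scanner ratio its 20 week mean was 1.50, also against a pool below background. Il9r was well above background on 1 array and was not tested.

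**Figure D2:**
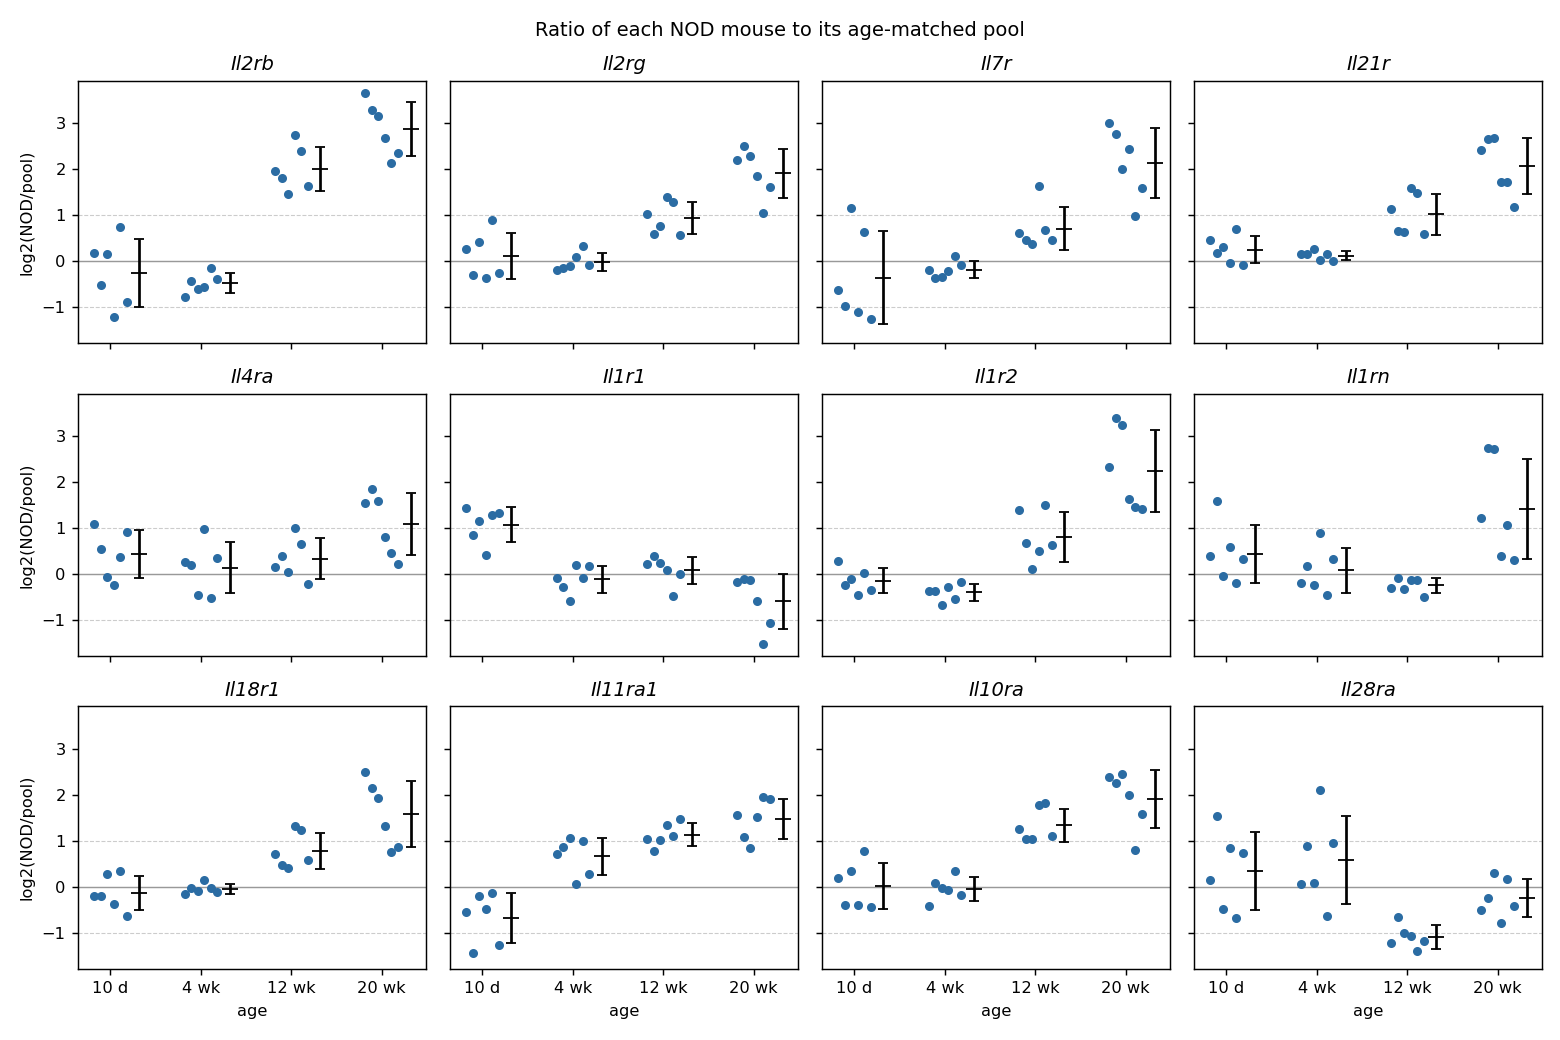
Log2(NOD/pool) of each mouse (blue points) by age for 12 called members, with the mean ± SD of the 6 mice at the right of each group; dashed lines mark 2-fold. Il2rb lies between 2.13 and 3.66 at 20 weeks, above every younger mouse up to 4 weeks, while Il1r1 and Il28ra have their calls at 10 days and 12 weeks.

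In the interleukin-1 and interleukin-18 family 3 of 8 measured members were higher at 20 weeks (Il1r2, Il18r1 and Il1rn), 0 were called at 12 or 4 weeks and 1 was higher at 10 days. The signalling receptor and the decoy receptor for interleukin 1 had different courses. Il1r1, which transmits the signal (probe at chr1:40372667-40372726, mm9), was higher at 10 days by 1.08 ± 0.38 (0.42 to 1.44, median 1.21, adjusted p = 6.07e-06). At 20 weeks all 6 mice were below 0, from -1.52 to -0.10 (median -0.38), with the lowest values, -1.52 and -1.06, in replicates 5 and 6. Between these ages it fell by 1.67 (standard error 0.22, adjusted p = 1.66e-06), and the groups did not overlap. Without those 2 replicates it fell by 1.32.

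Il1r2, the decoy receptor that binds interleukin 1 without signalling (probe at chr1:40180014-40180073, mm9), was between -0.67 and -0.18 at 4 weeks (median -0.36), between 0.10 and 1.50 at 12 weeks (median 0.66) and between 1.41 and 3.40 at 20 weeks (median 1.98). The 20 week mean was 2.24 ± 0.90 (adjusted p = 2.18e-08). Replicates 2 and 3 were highest, at 3.40 and 3.24. Its second probe, the intron-spanning one shown above, read 0.44 at 12 weeks and 1.52 at 20 weeks, in the same direction and less far from 0.

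Il1rn (probe at chr2:24206125-24206184, mm9) was the most uneven of the called members at 20 weeks, from 0.32 to 2.74 (median 1.15), with a mean of 1.41 ± 1.08 (adjusted p = 0.000103). Replicates 2 and 3 stood at 2.74 and 2.72, replicates 1 and 5 at 1.23 and 1.07, and replicates 4 and 6 at 0.40 and 0.32. At 12 weeks all 6 mice were below 0, from -0.49 to -0.09. Il18r1, the ligand-binding chain for interleukin 18 (probe at chr1:40557541-40557600, mm9), was at 1.58 ± 0.72 at 20 weeks (0.75 to 2.49, median 1.62, adjusted p = 1.77e-07). At 12 weeks its mean was 0.78 ± 0.39, or 1.72-fold, with mice from 0.40 to 1.31. The pool was not well above background on any array there, so the mean is set against an uncertain pool signal. By the scanner ratio the 12 week mean was 2.53 and after median centring 1.31. Its partner chain Il18rap was well above background on 6 arrays, all in the NOD channel, with age means between 0.01 and 0.19. By the scanner ratio the 20 week mean of Il18rap was 1.78, against a pool below background.

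Il1rap, the chain shared by these receptors, had age means from -0.28 to 0.09, and Il1rl2, a receptor for interleukin 36, from -0.69 at 10 days to 0.28 at 20 weeks. Il1rl1, the receptor for interleukin 33, was read by 2 usable probes that differed. The probe at chr1:40521952-40522011 (mm9), listed under the membrane-bound form, was at 0.61 ± 0.59 at 20 weeks and 0.02 ± 0.15 at 10 days. By the scanner ratio it read 2.06 and -0.52 at these ages. The probe at chr1:40504769-40504828 (mm9), listed under the shorter soluble form, was at -0.15 ± 0.30 and -0.54 ± 0.37 at the same ages. Both are dim, and neither channel was well above background on all 6 arrays for the first of them at 20 weeks. Il1rapl1 and Il1rapl2, which are mainly neuronal relatives of the family, were well above background on 1 and 0 arrays.

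Of the interleukin-6 and interleukin-12 family, 1 of 4 measured members was called. Il11ra1, the chain that binds interleukin 11 (probe at chr4:41716228-41716287, mm9), went from below 0 in all 6 mice at 10 days (-1.44 to -0.14, median -0.52) to above 0 in all 6 at each later age. Its mice lay between 0.05 and 1.06 at 4 weeks (median 0.78), between 0.78 and 1.48 at 12 weeks (median 1.07) and between 0.85 and 1.95 at 20 weeks (median 1.54). The means at 12 and 20 weeks were 1.13 ± 0.25 (adjusted p = 1.08e-05) and 1.48 ± 0.44 (adjusted p = 1.71e-07). After median centring the 20 week mean was 0.85 and no longer 2-fold, and the 10 day mean was 0.06. Its second probe read -0.85, 0.56, 0.92 and 1.08 at the 4 ages in turn. The mouse genome holds a near-identical copy, Il11ra2, and the probes were not checked for it here.

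The other measured members of the family did not reach 2-fold after loess, where the offset draws dim probes towards 0. Il12rb1, the chain shared by the receptors for interleukins 12 and 23, was at 0.60 ± 0.26 at 12 weeks and 0.90 ± 0.36 at 20 weeks, above 0 in all 6 mice each time, and it was called higher at 20 weeks without replicates 5 and 6. Il27ra, the chain for interleukin 27, was at 0.61 ± 0.26 and 0.71 ± 0.40, likewise above 0 in all mice. For both the pool was not well above background on any 12 week array. The means there were 1.51-fold and 1.53-fold, with the lowest mice at 0.34 and 0.27. By the scanner ratio, which has no such offset, Il12rb1 read 3.29 at 12 weeks and 2.44 at 20 weeks and Il27ra 3.11 and 2.37. Il6ra, the receptor for interleukin 6, was at 0.49 ± 0.30 at 10 days (0.10 to 0.87), a mean of 1.41-fold against a pool below background. By the scanner ratio its 10 day mean was 1.96. At the later ages its means after loess lay between -0.10 and 0.07. Il12rb2, the second chain of the interleukin 12 receptor, was well above background on 2 NOD arrays at 20 weeks and on no other, and Il23r and Il31ra on 0 and 3 arrays.

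In the interleukin-10 family Il10ra, the ligand-binding chain of the interleukin 10 receptor carried mostly by leukocytes (probe at chr9:45062237-45062296, mm9), was higher at both older ages. Its mice lay between -0.42 and 0.33 at 4 weeks (median -0.05), between 1.04 and 1.81 at 12 weeks (median 1.17) and between 0.80 and 2.44 at 20 weeks (median 2.12). The means were 1.34 ± 0.36 (adjusted p = 3.63e-06) and 1.91 ± 0.63 (adjusted p = 1.71e-08). Il10rb, the broadly expressed partner chain that several receptors share (probe at chr16:91425892-91425951, mm9), did not reach 2-fold at any age. It ran from -0.84 to 0.01 (median -0.58) at 10 days and from 0.38 to 0.98 (median 0.67) at 20 weeks.

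Il28ra, now named Ifnlr1, binds interferon lambda (probe at chr4:135263946-135264005, mm9). It was the 1 member called lower at an age, at 12 weeks, by -1.09 ± 0.25 (-1.40 to -0.66, median -1.13, adjusted p = 0.00222). Its mice were widely spread at 4 weeks, from -0.63 to 2.11 (median 0.48), and the lowest of them stood just above the highest 12 week mouse, so the groups did not overlap. After median centring the 12 week mean was -0.49 and not called. Il20rb, a chain of the receptors for interleukins 19, 20 and 24 (probe at chr9:100358255-100358314, mm9), was below 0 in all 6 mice at 10 days (-1.01 to -0.58, median -0.70) and at 4 weeks, and between -0.14 and 0.78 (median 0.27) at 20 weeks. A second probe of Il20rb read -0.02 at 10 days and 0.22 at 20 weeks. Il20ra had age means from -0.20 to 0.04 and Il22ra1 from -0.02 to 0.06, and they were well above background on 11 and 14 of the 24 arrays. Il22ra2, a soluble decoy for interleukin 22, was well above background on 0 arrays.

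The measured chains for interleukins 3 and 13 and the interleukin-17 receptors were not called at any age after loess. Il13ra1, the interleukin 13 chain that pairs with Il4ra, was at -0.96 ± 0.19 at 12 weeks (-1.16 to -0.69), below 0 in all 6 mice and just short of 2-fold, and between -0.28 and -0.08 at the other ages. Its second probe read -0.34 at 12 weeks, and by the scanner ratio the reported probe read -1.90 there and after median centring -0.26. Il3ra had age means no higher than 0.27. Il5ra and Il13ra2 were each well above background on 1 array. Il17rc and Il17re are chains that pair with Il17ra to receive interleukins 17A and 17F and interleukin 17C. On their reported probes they were below 0 in all 6 mice at every age after loess. A second bright probe of Il17rc read -0.07 at 12 weeks, with mice from -0.35 to 0.19 on both sides of 0. At 10 days, 4 weeks and 20 weeks it read -0.44, -0.32 and -0.51. Il17rc ran from -0.80 ± 0.27 at 10 days to -0.32 ± 0.16 at 12 weeks and Il17re from -0.71 ± 0.15 at 20 weeks to -0.41 ± 0.18 at 12 weeks. After median centring the 12 week means turned to 0.76 and 0.31, and that of Il17re at 10 days to 0.05, while the 20 week means went past 2-fold, to -1.09 and -1.10. By the scanner ratio Il17re was also past 2-fold at 10 days, and at -1.08 at 4 weeks and -1.06 at 20 weeks. Il17ra had age means from 0.02 to 0.38 and Il17rb from -0.15 to 0.09. Il17rd, an inhibitory relative, was at 0.40 ± 0.26 at 4 weeks and from -0.04 to 0.11 at the other ages. Its probes differed at 10 days, where the reported one read 0.00 and another, equally well above background, read -0.73 ± 0.17.

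Differences between ages were tested next. From 4 to 12 weeks 3 members rose and 1 fell, against 2.97% and 3.07% of all genes. Il2rb rose by 2.48 (standard error 0.29, adjusted p = 3.92e-06), Il10ra by 1.39 (0.25, adjusted p = 0.000261) and Il1r2 by 1.20 (0.30, adjusted p = 0.00341), while Il28ra fell by 1.67 (0.37, adjusted p = 0.00145). The groups of mice did not overlap for these 4, which were already picked by adjusted p and fold. The share of all genes without overlap was not counted, so this adds no further support. The arrays of these ages shared no slide, so slide and age cannot be told apart in this difference. Read with all passing probes of the gene averaged, the Il1r2 rise was 0.88 and not called, and after median centring the Il28ra difference was -0.77 and not called.

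From 12 to 20 weeks 4 members rose and 0 fell, where 2.01% of all genes rose and 0.404% fell. At an unadjusted p under 0.05 (limma) 18 members were higher and 3 lower, a threshold at which the share of all genes was not counted. Il1rn rose by 1.66 (standard error 0.37, adjusted p = 0.00229), with no overlap between the groups. Il1r2 rose by 1.44 (0.30, adjusted p = 0.00139), Il7r by 1.43 (0.37, adjusted p = 0.00683) and Il21r by 1.04 (0.23, adjusted p = 0.00179), each with overlapping groups. The Il21r difference fell under 2-fold, at 0.92 to 0.97, when 12 week replicate 2, 3 or 6 or 20 week replicate 1, 2 or 3 was left out. On the 1 slide that held both ages, with 2 arrays of each, the differences were 2.30 for Il1rn, 1.79 for Il1r2, 2.31 for Il7r and 1.49 for Il21r. The 20 week arrays there were replicates 1 and 2, whose mean over the members was 0.83 and 0.94. On another slide replicate 3 was at 0.93, and replicates 4 to 6 lay between 0.35 and 0.52. Slide and mouse cannot be told apart in these differences. After median centring those of Il1r2 (0.33), Il7r (0.61) and Il21r (0.16) were no longer called. By the scanner ratio that of Il7r was 1.84 and that of Il21r 0.40, neither called, as in the deposited table. The Il21r difference was also under 2-fold without background subtraction and with the slide as a random block (both 0.99), and kept its call in 11 of 22 alternatives. Without 20 week replicates 5 and 6 the count was 8, the same 4 and also Il2rb, Il2rg, Il4ra and Il18r1, where 3.16% of all genes rose.

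From 10 days to 20 weeks 10 members rose and 1 (Il1r1) fell, against 7.73% and 4.80% of all genes. The arrays of these ages also shared no slide, so slide and age cannot be told apart in this difference either. The rises were 3.13 for Il2rb, 2.49 for Il7r, 2.38 for Il1r2, 2.16 for Il11ra1, 1.90 for Il10ra, 1.81 for Il21r, 1.80 for Il2rg and 1.71 for Il18r1. Those of Il10rb (1.21, adjusted p = 1.25e-07) and Il20rb (1.03, adjusted p = 2.37e-07) were the smallest called, and under median centring Il10rb turned to -0.13 while Il20rb was at 0.31 and Il11ra1 at 0.79, neither called. The Il20rb difference also fell under 2-fold, at 0.93 to 0.98, without 10 day replicate 4 or 20 week replicate 2 or 3, and was 0.63 with its probes averaged. Without 20 week replicates 5 and 6 the count was 14, where 8.74% of all genes rose: the same 10 and also Il1rn (1.33), Il1rl2 (1.13), Il12rb1 (1.06) and Il4ra (1.01). The groups of mice overlapped for Il7r. A lack of overlap in other members picked by adjusted p and fold adds no further support, as the share over all genes was not counted. By the moderated F test without a fold floor 26 of 32 members (81.2%) differed among the 4 ages, where 76.0% of all genes did. The 6 that did not were Il15ra, Il2ra, Il18rap, Il20ra, Il22ra1 and Il17re.

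The channels show on which side of the ratio a value lay. For Il2rb the NOD channel, in log2 signal, read 6.32 ± 0.18 in 4 week arrays, 10.1 ± 0.57 in 12 week arrays and 9.74 ± 0.72 in 20 week arrays. The pool read 6.80, 8.13 and 6.86 there. For Il10ra the NOD channel was at 6.65, 9.15 and 9.03 and the pool at 6.70, 7.82 and 7.12. In both genes the NOD level at 20 weeks was not above that at 12 weeks, while the mean ratio was higher by 0.87 for Il2rb (adjusted p = 0.0318) and by 0.57 for Il10ra (adjusted p = 0.0978), both under 2-fold. For Il1r2 the NOD channel was at 8.46 ± 0.73 at 12 weeks and 9.30 ± 1.12 at 20 weeks, and the pool at 7.65 and 7.06. In Il1rn the NOD channel read 6.80 and 7.90 at these ages and the pool 7.04 and 6.49. In Il7r these were 7.89 and 8.43 for NOD and 7.18 and 6.29 for the pool. In Il21r they were 8.17 and 8.48 for NOD and 7.15 and 6.41 for the pool. In Il7r and Il21r the pool level differed more between these ages than the NOD level. In Il1r2 and Il1rn the NOD level differed more. Il18r1 read 7.72 and 7.69 in NOD and 6.94 and 6.1 in the pool. Il1r1 was bright in NOD mice at every age (11.4 to 12.1), and its pool was at 10.3 at 10 days and between 11.8 and 12.2 later. For Il11ra1 the pool was at 12.95 at 10 days and at 11.4 or lower later. Levels of a channel were not tested between ages, and for dim probes they depend on the normalization: the pool of Il21r was at 7.15 at 12 weeks with 1 of 6 arrays well above background and at 6.41 at 20 weeks with 6 of 6.

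**Figure D3:**
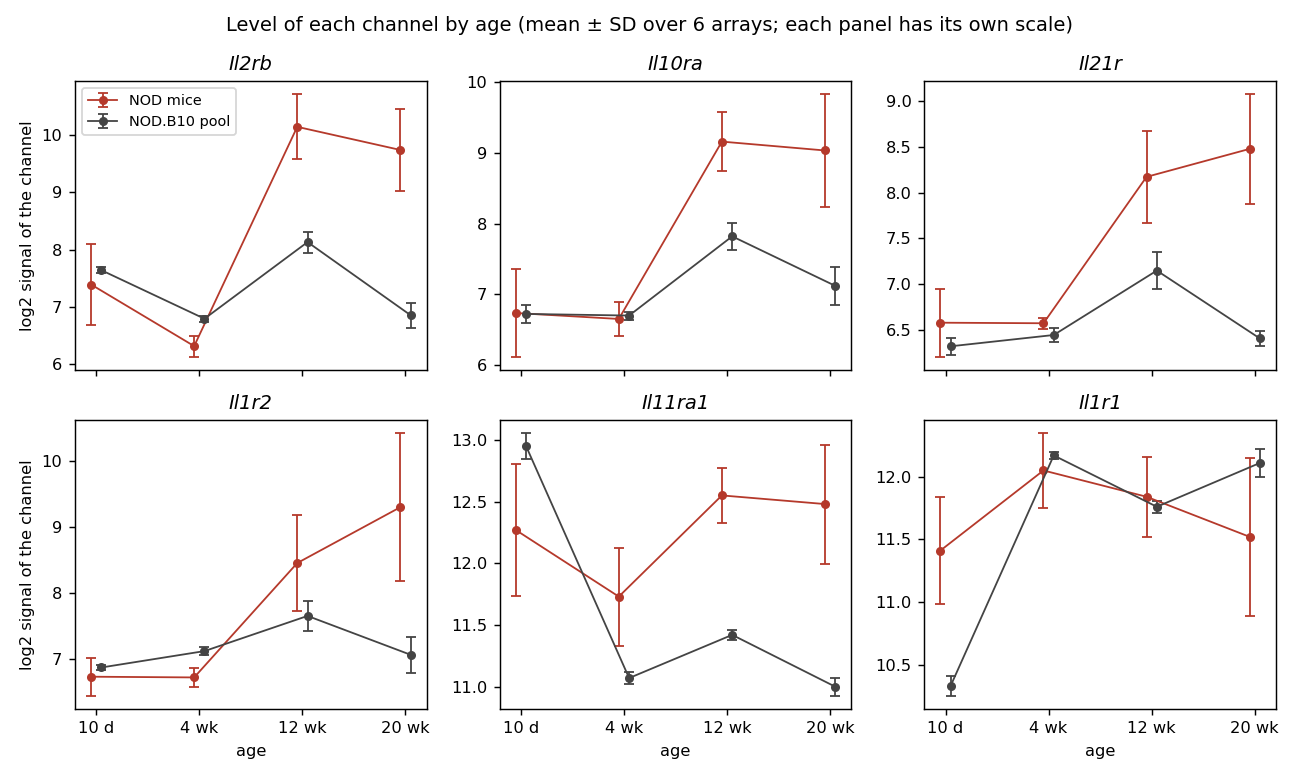
Normalized log2 signal of the NOD channel (red) and the pool channel (grey) by age for 6 members, mean ± SD over 6 arrays; the panels have separate scales and are not compared with each other. For Il2rb the NOD channel is at 10.1 at 12 weeks and 9.74 at 20 weeks, and for Il1r1 the pool is at 10.3 at 10 days.

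The ligands, related chains and signalling genes were read beside the receptors. Of all genes 3.87% were higher and 1.23% lower at 20 weeks, and 2.09% and 1.42% at 12 weeks. At 4 weeks these shares were 1.91% and 0.879%, and at 10 days 1.61% and 2.36%. Lists with only 1 or 2 calls are given as counts and were not tested as sets. Of 27 measured ligands 4 were higher and 0 lower at 20 weeks, 1 higher and 2 lower at 12 weeks, 0 at 4 weeks in either direction, and 0 higher and 3 lower at 10 days. Il1b, an agonist of Il1r1, was at 2.61 ± 0.52 at 20 weeks and -1.04 ± 1.08 at 10 days, and Il33, the ligand of Il1rl1, at 2.00 ± 0.78 at 20 weeks. Il34, which binds the receptor of macrophage colony-stimulating factor, was at 1.61 ± 0.29 at 12 weeks and 1.69 ± 0.50 at 20 weeks. Il6, the ligand of Il6ra, was lower at 12 weeks by -4.17 ± 0.58 and at 10 days by -1.36 ± 1.21. Of 15 related receptor chains 4 were higher and 1 lower at 20 weeks, and 3 higher and 1 lower at 12 weeks. Csf2rb (2.33 ± 0.64) and its near-identical copy Csf2rb2 (2.34 ± 0.72), which signal for interleukin 3 and, for Csf2rb, also interleukin 5, and cannot be told apart with certainty by such probes, were higher at 20 weeks, as were the interleukin 18 binding protein Il18bp (1.86 ± 0.65) and the interferon gamma receptor chain Ifngr1 (1.56 ± 0.57).

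Among the JAK and STAT genes Stat4, which acts below the interleukin 12 receptor, was higher at 20 weeks (2.01 ± 0.93), and Stat3 was lower at 12 weeks (-1.03 ± 0.29). Of 12 feedback inhibitors 1 was higher at 20 weeks, Socs1 at 2.07 ± 0.62, and at 12 weeks Ptpn6, a phosphatase of leukocytes, was higher (1.64 ± 0.51) and Cish, a STAT5 target, lower (-1.54 ± 0.57). At 10 days Socs1 (-1.61 ± 0.61) and Cish (-1.33 ± 0.28) were lower. Of 13 adaptors of interleukin-1 and interleukin-17 signalling 0 were called at any age. From 10 days to 20 weeks 2 rose, Nfkbiz by 1.82 and Nfkbia by 1.20, where 7.73% of all genes rose. From 12 to 20 weeks 1 fell, Tab1 by 1.10, where 0.404% of all genes fell.

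Several markers of T cells, B cells, macrophages, NK cells and stellate cells were higher at 12 and 20 weeks, and 0 of those of neutrophils, ducts, acini and endothelium were. The islets are bulk samples, so more cells of a type and more RNA per cell cannot be told apart, and the part of these cell types in the receptor values was not tested. Of 18 T cell genes 12 were higher at 20 weeks (median 2.03, mouse means 1.19 to 2.33), 9 at 12 weeks (1.24, 0.99 to 1.75), 1 at 4 weeks (-0.01, 0.01 to 0.26) and 0 at 10 days (0.11, -0.55 to 0.82). Of 11 B cell genes 7 were higher at 20 weeks (1.26, 0.26 to 2.06), 5 at 12 weeks (0.99, 0.62 to 1.80) and 0 at 4 weeks (-0.09, -0.32 to 0.90), and 4 were lower at 10 days (-0.19, -1.36 to 0.14). Of 14 macrophage and dendritic cell genes 7 were higher at 20 weeks (1.01, 0.70 to 1.55) and 5 higher and 1 lower at 12 weeks (0.52, 0.39 to 0.86); at 4 weeks 0 were called (0.04, -0.27 to 0.28) and at 10 days 1 was lower (0.03, -0.65 to 0.33). At 20 weeks every gene of these 3 lists was well above background on at least 1 NOD array, and in the pool 3 of the T cell genes and 0 of the others were not. Of 9 NK and innate lymphoid genes 3 were higher at 20 weeks (0.98, 0.54 to 1.45) and 2 at 12 weeks (0.42, 0.50 to 0.99), and 0 earlier (-0.01 at both ages, -0.13 to 0.31 at 10 days and -0.05 to 0.10 at 4 weeks).

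Of 12 stellate cell and fibroblast genes 5 were higher at 20 weeks (0.94, 0.51 to 1.62) and 3 at 12 weeks (0.54, 0.58 to 1.13), 0 were called at 4 weeks (0.35, -0.15 to 1.05) and 7 were lower at 10 days (-1.28, -1.94 to -0.53). Thy1 stands both in this list and in that of T cells. Of 13 islet endocrine genes, which mark the labelled tissue and were all well above background, 10 were higher at 10 days (1.83, 0.71 to 2.16), and 3 were lower at 4 weeks (-0.83, -1.45 to -0.46), 3 at 12 weeks (-0.38, -0.81 to 0.08) and 9 at 20 weeks (-1.12, -3.20 to -0.43). Of 11 acinar genes 9 were higher at 4 weeks (1.49, 1.06 to 1.84), 2 higher and 2 lower at 10 days (-0.20, -1.46 to 0.57), and 0 called at 12 weeks (0.13, -1.10 to 0.85) and 20 weeks (0.06, -2.33 to 2.09). Of 10 duct genes 3 were lower at 12 weeks (-0.64, -0.98 to -0.80), 1 was higher at 4 weeks (0.38, -0.05 to 0.66), and 0 were called at 10 days (-0.05, -0.48 to 0.71) and 20 weeks (-0.23, -0.82 to 0.26). Of 10 endothelial genes 2 were lower at 10 days (-0.47, -1.30 to -0.35) and 1 at 4 weeks (-0.37, -0.54 to 0.14), with 0 called at 12 weeks (0.01, -0.06 to 0.12) and 20 weeks (-0.25, -0.66 to 0.30). Of 10 listed neutrophil genes only 5 passed the filter on dim probes. Of these 0 were called at any age, with medians of -0.11, 0.23, 0.02 and 0.06 and mouse means from -0.64 to 1.48. Of 12 listed mast cell, basophil and eosinophil genes 6 passed the filter. Among these 6, 1 was higher at 4 weeks (0.16, 0.34 to 0.45) and at 20 weeks (0.10, 0.22 to 0.48), and 0 at 10 days (-0.01, -0.11 to 0.12) and 12 weeks (0.01, -0.06 to 0.19).

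**Figure D4:**
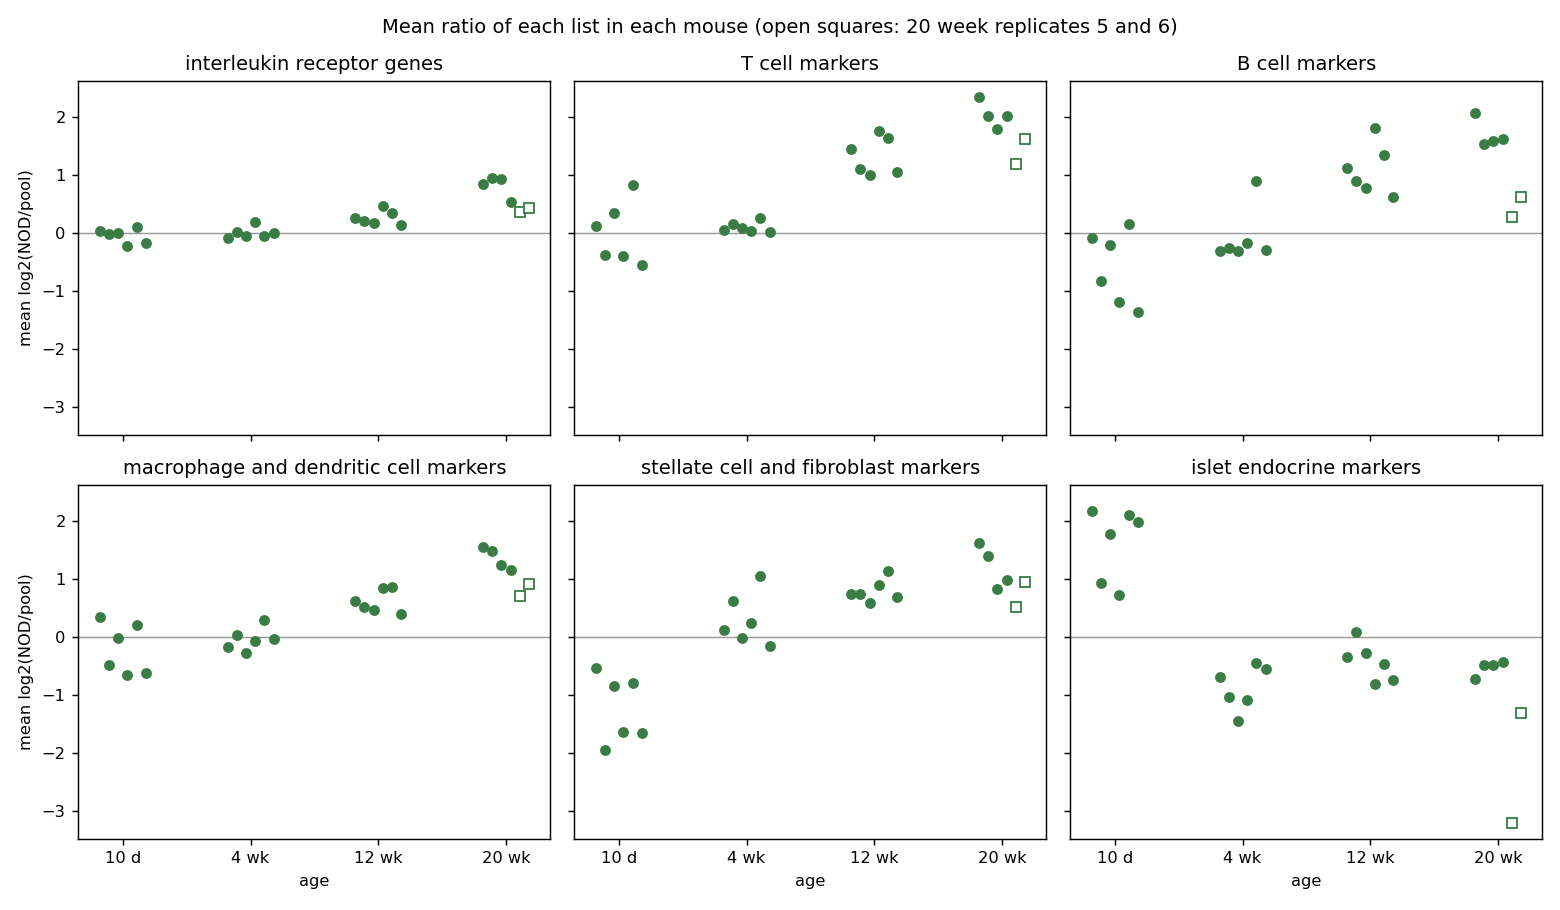
Mean log2(NOD/pool) in each mouse by age for the 32 receptor genes and 5 marker lists; each point is 1 mouse, and open squares are 20 week replicates 5 and 6. The receptor genes lie between 0.35 and 0.94 at 20 weeks and T cell markers between 1.19 and 2.33, while the open square of replicate 5 is at -3.20 for islet endocrine markers.

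In the 20 week mice the mean over the receptor genes was 0.83, 0.94 and 0.93 in replicates 1 to 3 and 0.52, 0.35 and 0.42 in replicates 4 to 6. The T cell list was at 2.33, 2.01 and 1.79 in the first of these and at 2.02, 1.19 and 1.62 in the others. Replicates 1 and 2 shared a slide with 12 week arrays and replicates 3 to 6 lay on another. The higher receptor means were those of both 20 week mice on the first slide and of replicate 3 on the second. The part of the slide in this split was not tested.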

How the data were processed

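Islet RNA (300 ng, amplified and labelled per the labels' protocols) was hybridised on 24 2-colour Agilent arrays of 60-base probes. The deposited scanner files, made with Feature Extraction 10.7.3.1 per the file headers, hold intensity values and local background for each channel, flags, and the software's log10 ratio after its own background correction and dye normalization. A deposited table of log2 values matched that ratio (r at least 0.99981, column medians -0.182 to 0.0868) and lists 27 of the 32 members; it served as an alternative.

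Mean intensity was background-corrected (normexp, offset 50) and normalized within each array by loess (limma 3.58.1, R 4.3.3), with control spots at weight 0 and outlier spots removed (44 missing ratios among the genes tested). The offset draws ratios of dim probes towards 0. Spots of a probe were averaged, and the brightest passing probe stood for a gene. A mean for each age was fitted with lmFit and eBayes over 24 arrays, with Benjamini-Hochberg adjustment over 18085 genes; the method was tested on simulated data. Every member was described, called members by mouse, and at most 4 called genes of each pathway list were named. Some results for the JAK and STAT list are not reported here. The members and lists were chosen with earlier results of these data known. Symbols were updated through RefSeq names (27050 probes by accession, 4154 by symbol, 589 by older symbol, 9381 kept the file's name). Replicates are single mice per the labels, and the number of arrays limits the precision. Alternatives covered scaling, background, filters, probe choice, the replicate block, the slide and leaving out mice.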

Additional observations from a re-analysis of the deposited data

Results flagged for a closer look

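1 mouse stood apart among the called members: Il7r in 12 week replicate 4 was at 1.645, with the nearest mouse at 0.69, a gap of 0.748 of the range of the group. 56 groups of 6 mice were examined in this way, and chance gives about 1 in 20.

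Changes between ages passed a test of the difference itself for 19 gene and age pairs. From 4 to 12 weeks they were 2.48 for Il2rb, 1.39 for Il10ra, 1.20 for Il1r2 and -1.67 for Il28ra. From 12 to 20 weeks they were 1.66 for Il1rn, 1.44 for Il1r2, 1.43 for Il7r and 1.04 for Il21r. From 10 days to 20 weeks they were 3.13 for Il2rb, 2.49 for Il7r, 2.38 for Il1r2, 2.16 for Il11ra1, 1.90 for Il10ra, 1.81 for Il21r, 1.80 for Il2rg, 1.71 for Il18r1, 1.21 for Il10rb, 1.03 for Il20rb and -1.67 for Il1r1.

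Among the members that were not tested, Il12rb2 was well above background on 2 of the 6 NOD arrays at 20 weeks and on 0 pool arrays.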

How the results depend on the processing

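Of 35 calls of single members (16 at an age, 19 between ages), all kept their direction and call with the replicate block, without the filter on dim probes, with a filter of 12 arrays (28 members) and without 20 week replicates 5 and 6. 34 did without background subtraction and with the slide as a random block, 33 by the scanner software's log ratio, in the deposited table and with probes averaged, and 25 under median centring, where 9 fell short and the 20 week to 10 day difference of Il10rb reversed to -0.13. The cause was not tested. The filter settings kept the same probe for each called member, and the replicate block leaves the age means unchanged. Leaving out 20 week mice cannot move the mean of another age. The kept calls under these settings were therefore largely fixed in advance. With the replicate block 10 members were higher at 20 weeks and 24 differed among the ages; replicate numbers do not pair the mice (36 pairs, correlations of -0.424 to 0.631, median -0.104; 11 of 72 best with their own number).

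Counts that moved by over 1.5 times follow as median centring, scanner log ratio and deposited table. At 10 days 1 higher became 2, 5 and 4; 0 lower became 5 and 5 in the scanner ratio and the deposited table. At 4 weeks 0 lower became 5 and 4 in the same. At 12 weeks 4 higher became 12, 11 and 10, and 7 without background subtraction, where all genes went from 2.09% to 23.5%, 11.6%, 10.2% and 2.92%; 1 lower became 0, 2 and 2, and 2 without background subtraction, with a range of 1 to 2 when single mice were left out (2 without 12 week replicate 2). At 20 weeks 10 higher became 16 by the scanner ratio, and 0 lower became 3, 1 and 1. From 4 to 12 weeks 3 higher became 15, 10 and 9, and 7 without background subtraction; 1 lower became 0, 2 and 2, and 2 without background subtraction. From 12 to 20 weeks 4 higher became 1 under median centring and 8 without 20 week replicates 5 and 6; 0 lower became 6, 1 and 1. From 10 days to 20 weeks 1 lower became 5, 3 and 2. For differences between ages the share of all genes called was not counted under these scalings or without background subtraction. Median centring put the median gene at -0.147 at 4 weeks and 0.502 at 12 weeks. The moved counts of these differences are therefore not read as a result about the members. For dim probes the signal over background limits the ratio.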
